A study of Danio rerio with 6 samples.

Results

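The insulin-like growth factor (IGF) axis was followed through 10 named genes in the intestine of adult zebrafish after bowel resection. The 10 genes were 3 ligands (igf1, igf2a and igf2b), 2 receptors (igf1ra and igf1rb) and 5 binding proteins (igfbp1a, igfbp1b, igfbp2a, igfbp3 and igfbp5b), taken by gene name from 12398 gene rows. All 10 were present and all 10 entered the test, which covered 12381 genes with at least 10 counts over the libraries.

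IGF ligands are secreted peptides that bind the IGF1 receptor, a tyrosine kinase whose signal runs through insulin receptor substrate adaptors to PI3 kinase and Akt and through Ras to ERK. Binding proteins hold the ligands outside the cell, lengthen their life in blood and either keep them from the receptor or bring them to it. In vertebrates the liver is the main source of circulating IGF1 under growth hormone, and IGF ligands made by the gut wall are known as growth signals for the intestinal epithelium.

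Both groups were adult male wild-type Ekk zebrafish, sampled 2 weeks after surgery, and the tissue was proximal intestine (segment S1). In the short bowel syndrome (SBS) fish the middle of the intestine (S2/S3) had been removed, the distal bowel tied off and the proximal end opened as an ostomy. The sham fish had a laparotomy without handling of the bowel, so the sham group carries the incision but neither the ostomy nor the loss of bowel. The fish sequenced were those with the highest RNA concentration in each group, and the comparison asks which genes differ in the remaining bowel after resection.

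The table held 3 sham and 3 SBS columns, but SBS replicates 1 and 2 had equal counts in all 12488 rows. They were counted as 1 library, which left 3 sham libraries and 2 distinct SBS libraries (SBS 1 and SBS 3). Counts on genes ran from 20377652 in SBS 1 to 47142289 in sham 3, and every count in SBS 1 was an even number, against 50.2% to 50.9% of rows in the others, so its total may not be a number of reads. With SBS 1 counts divided by 2, 569 genes were called in place of 563 and igfbp1a had a log2 fold change of 5.42. The p-values measure the spread between these 5 libraries only. SBS 1 and SBS 3 also differed from each other: the markers fabp2 (absorptive enterocytes) and col1a1a (fibroblasts) read 331 and 1262 CPM and 233 and 570 CPM, where CPM is the count scaled to a common library size with TMM factors. The labelled tissue was present in the sham libraries, where fabp2 read 10627 to 12166 CPM. Fabp2 was below all of these in both SBS libraries, so it marks the tissue less clearly there.

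A gene was called when edgeR's quasi-likelihood test gave a Benjamini-Hochberg adjusted p under 0.05 over all genes and the log2 fold change (SBS over sham) was at least 1.5 in either direction. Of the 10 IGF axis genes, 1 was called higher in SBS and 0 lower, beside 4.55% of all genes called, 2.49% higher and 2.06% lower. The called gene was igfbp1a. A total of 4 of the 10 had an unadjusted p under 0.05 (28.9% of all genes): igfbp1a and igf2a were higher in SBS, and igf2b and igfbp5b lower. These were also the 4 genes whose groups did not overlap, beside 46.9% of all genes, of which 22.6% had both SBS libraries above all sham libraries and 24.3% below. The median log2 fold change of the 10 genes was 1.21, with 8 positive and 2 negative, while the median of all genes was 0.00038. That tilt rested on SBS 1: without it, 5 of the 10 values were positive and 5 negative, with a median of 0.067.

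**Figure D1:**
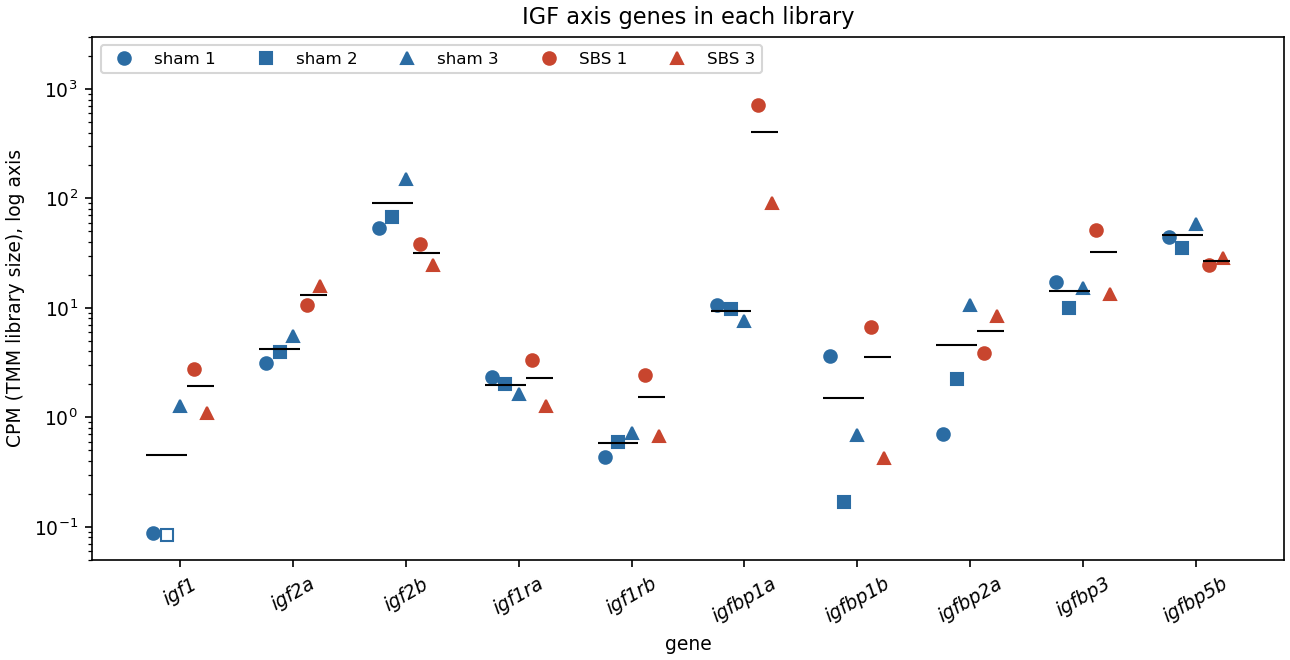
Level of each IGF axis gene in each library, as CPM after TMM scaling on a log axis; blue marks are the 3 sham libraries, red marks the 2 distinct SBS libraries, bars the group means, and the open square igf1 in sham 2, which had 0 counts and is drawn at the level of 3 counts. Both SBS libraries lie above all sham libraries for igf2a and igfbp1a, and below all of them for igf2b and igfbp5b.

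The ligand genes did not move as a block. Igf2b, the most abundant of the 3 in sham intestine, was lower in SBS, while igf2a was higher, and neither passed the threshold. In zebrafish both are co-orthologues of mammalian IGF2, a growth factor of fetal and adult tissues.

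Igf2a (ENSDARG00000018643, chromosome 7) read 3.12, 3.99 and 5.58 CPM in the 3 sham libraries and 10.6 and 15.9 CPM in SBS 1 and SBS 3. Both SBS libraries stood above all sham libraries, and the means were 4.23 ± 1.25 (SD, n = 3) and 13.2 ± 3.75 CPM (SD, n = 2), a 3.13-fold difference. Its log2 fold change was 1.65 (SE 0.373) with an edgeR adjusted p of 0.0672, so igf2a was not called. The call depended on the method: edgeR's likelihood ratio test gave a log2 fold change of 1.65 with an adjusted p of 0.00658, and DESeq2's Wald test gave 1.70 with 0.00162. The likelihood ratio test with 1 factor from RUVg gave 1.80 with 0.00104. RUVg is a method of RUVSeq, the package named in the study's methods, but its factor was computed here without that package. The control genes were those outside the 5000 with the lowest likelihood ratio p in the same comparison. The function and settings used in the study are not given in the sources used here. The likelihood ratio test, the Wald test and the RUVg fit called 15.6%, 15.2% and 13.6% of all genes. With each library left out in turn, the log2 fold change stayed between 1.32 and 1.92. The study also reported a significant igf2a increase in SBS by RT-qPCR, a measurement on samples other than those sequenced. The p limit printed in its methods for RT-qPCR is looser than the 0.05 used here, so the 2 results are not at a like threshold.

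Igf2b (ENSDARG00000033307, chromosome 25) read 54.0, 67.9 and 150 CPM in the sham libraries and 38.4 and 24.6 CPM in the SBS libraries. Sham 3 was the highest and SBS 3 the lowest, and the groups did not overlap. The means were 90.7 ± 51.9 CPM (SD, n = 3) and 31.5 ± 9.73 CPM (SD, n = 2). For igf2b the log2 fold change was -1.53 (SE 0.537, edgeR adjusted p = 0.135), and without sham 3 it was -0.93. After RUVg it was -1.73 with an adjusted p of 0.0183. The likelihood ratio test gave -1.53 with an adjusted p of 0.0587, and DESeq2's Wald test gave -1.46 with 0.0514. Scaling by total counts alone gave -0.64 with an edgeR adjusted p of 0.352, where the median of all genes was 0.82. Fewer cells that make a transcript and less transcript in each cell cannot be told apart in whole tissue, here or for any other gene.

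Igf1 (ENSDARG00000094132, chromosome 4), the growth hormone-dependent ligand, was close to the limit of detection. Its counts were 3, 0 and 42 in the sham libraries and 84 and 56 in the SBS libraries, or 0.0874, 0, 1.26, 2.74 and 1.09 CPM. Sham 3 lay above SBS 3, so the groups overlapped, and 0 counts in sham 2 allow a level of up to 0.0843 CPM, a limit that covers counting error only. For igf1 the log2 fold change was 2.08 with an SE of 1.55 and an edgeR adjusted p of 0.415. It was 5.40 without sham 3, the sham library with most igf1, and 1.28 without SBS 1.

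**Figure D2:**
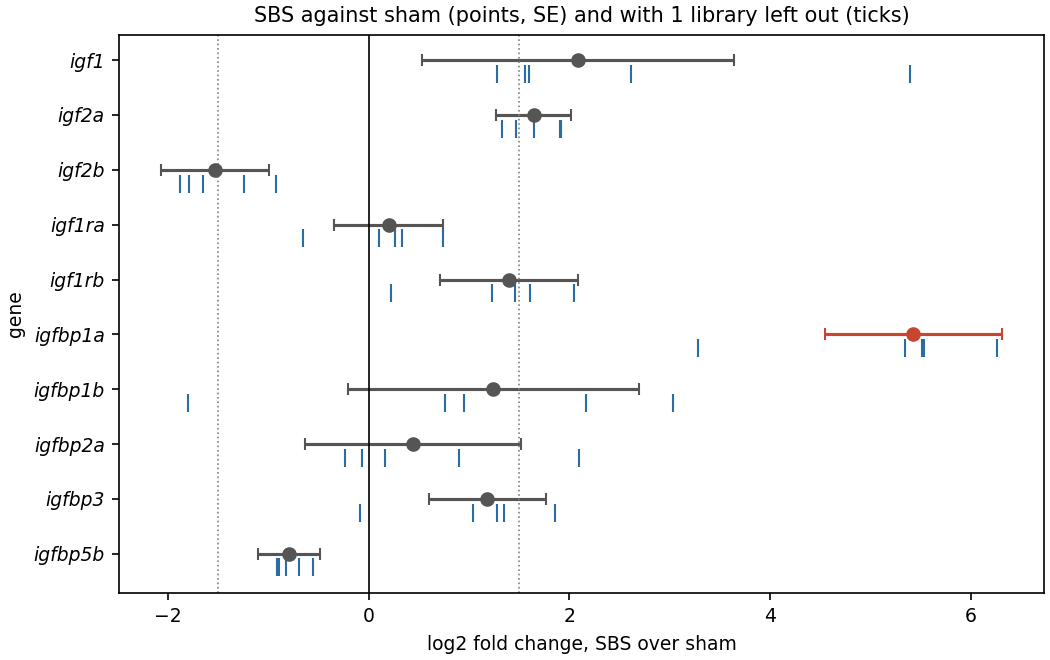
Log2 fold change of each IGF axis gene, SBS over sham, with bars of 1 SE from the edgeR fit; blue ticks are the same value with 1 of the 5 libraries left out, dotted lines the limits of 1.5 in each direction, and the called gene is red. Igfbp1a stays at 3.28 or above in every left-out fit, while the ticks of igf1ra, igfbp1b, igfbp2a and igfbp3 lie on both sides of 0.

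Both IGF1 receptor genes were expressed at low levels and neither differed between the groups beyond the spread of the libraries. Of the 2 receptors, 0 were called by edgeR's quasi-likelihood test and 0 had an unadjusted p under 0.05; DESeq2's Wald test and the likelihood ratio test called neither. Igf1ra and igf1rb are the zebrafish duplicates of the single mammalian IGF1 receptor gene.

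Igf1ra (ENSDARG00000027423, chromosome 18) read 2.33, 2.02 and 1.62 CPM in sham and 3.33 and 1.26 CPM in SBS. SBS 1 was the highest library and SBS 3 the lowest, so the sham libraries lay between them. The log2 fold change was 0.20 (SE 0.543, edgeR adjusted p = 0.837), and it was -0.66 without SBS 1 and 0.74 without SBS 3. Igf1rb (ENSDARG00000034434, chromosome 7) read 0.437, 0.590 and 0.720 CPM in sham and 2.42 and 0.679 CPM in SBS. Only SBS 1 stood apart, and SBS 3 fell within the sham range. The log2 fold change of igf1rb was 1.40 (SE 0.686, edgeR adjusted p = 0.239), and without SBS 1 it was 0.22.

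Among the binding proteins, igfbp1a stood far above its sham level in both SBS libraries. Igfbp5b was lower without passing the test, and igfbp1b, igfbp2a and igfbp3 overlapped between the groups. Of the 5 genes, 1 was called, 2 had an unadjusted p under 0.05, and the median log2 fold change was 1.18, or -0.086 without SBS 1.

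Igfbp1a (ENSDARG00000099351, chromosome 20) encodes an insulin-like growth factor binding protein 1, in mammals a liver product that insulin lowers and that fasting and stress raise. It read 10.6, 9.78 and 7.62 CPM in the sham libraries and 713 and 90.7 CPM in SBS 1 and SBS 3, from 254 to 365 counts in a sham library and 21830 and 4674 counts in the SBS libraries. The sham libraries were close together, while SBS 1 read 7.87 times SBS 3. The means were 9.34 ± 1.55 CPM (SD, n = 3) and 402 ± 440 CPM (SD, n = 2), a 43.0-fold difference whose size rested largely on SBS 1. Its log2 fold change was 5.43 (SE 0.879) with an edgeR adjusted p of 0.0343, which placed igfbp1a at rank 252 of the 12381 genes ordered by log2 fold change. Limma on log2(RPKM + 1), which called 4.85% of all genes, also called igfbp1a (4.55 on that scale, adjusted p = 0.0445).

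The igfbp1a difference held in each SBS library on its own, but the call needed all 3 sham libraries. With 1 SBS library left only the size is given: the log2 fold change was 3.28 without SBS 1 and 6.25 without SBS 3. Without sham 1, 2 or 3 it was 5.53, 5.51 or 5.34, with adjusted p-values of 0.141, 0.122 and 0.145. In those 3 fits edgeR called 0 of all genes, with 2214, 2660 and 2442 genes at an unadjusted p under 0.05.

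Igfbp5b (ENSDARG00000025348, chromosome 9), one of the zebrafish genes for the binding protein that in mammals attaches to extracellular matrix, read 44.3, 35.4 and 58.9 CPM in sham and 24.8 and 28.6 CPM in SBS. Both SBS libraries lay below all sham libraries, with means of 46.2 ± 11.9 CPM (SD, n = 3) and 26.7 ± 2.73 CPM (SD, n = 2). The log2 fold change was -0.79 (SE 0.307), with an unadjusted p of 0.0428 and an edgeR adjusted p of 0.160. Scaling by total counts alone, which moved the median log2 fold change of all genes by 0.82, gave 0.057 for igfbp5b, below that median.

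Igfbp3 (ENSDARG00000099144, chromosome 20), whose mammalian counterpart carries most of the IGF in blood, read 17.2, 10.03 and 15.3 CPM in sham and 51.2 and 13.4 CPM in SBS. SBS 3 fell within the sham range, and only SBS 1 was higher. The log2 fold change was 1.18 (SE 0.579, edgeR adjusted p = 0.237). Without SBS 1 it was -0.086, and without SBS 3 it was 1.85.

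The last pair of binding proteins varied widely inside the groups. Igfbp1b (ENSDARG00000038666, chromosome 2), the duplicate of igfbp1a, read 3.61, 0.169 and 0.690 CPM in sham and 6.67 and 0.427 CPM in SBS. SBS 1 was 15.6 times SBS 3, and SBS 3 lay below 2 of the 3 sham libraries. The log2 fold change was 1.24 (SE 1.45, edgeR adjusted p = 0.607); without SBS 1 it was -1.80, and without sham 1 it was 3.03. Igfbp2a (ENSDARG00000052470, chromosome 6) read 0.699, 2.22 and 10.7 CPM in sham, a 15.3-fold range, and 3.86 and 8.50 CPM in SBS. Both SBS values fell inside that range, and the log2 fold change was 0.45 (SE 1.07, edgeR adjusted p = 0.815), with 2.09 without sham 3, 0.90 without SBS 1, 0.16 without sham 2, -0.063 without sham 1 and -0.23 without SBS 3.

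Levels were compared between genes as RPKM, counts scaled to the deposited gene length and to the TMM library size. In sham intestine igf2b was the most abundant of the 10 genes with a mean of 26.8 ± 15.3 RPKM (SD, n = 3), followed by igfbp5b at 7.63 ± 1.96, igfbp1a at 5.53 ± 0.918 and igfbp3 at 4.56 ± 1.2. The igf2b range did not overlap that of igfbp5b, but every later gene in the order overlapped its next neighbour: igfbp2a, igf2a, igfbp1b, igf1ra, igf1 and igf1rb, from 2.61 down to 0.137 RPKM.

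In SBS intestine igfbp1a came first, with a mean of 237.9 RPKM and 422 and 53.6 RPKM in the 2 libraries. It was followed by igfbp3 at 10.4, igf2b at 9.30 and igf2a at 6.49 RPKM. Igfbp1a stood clear of igfbp3 and igf2a clear of igfbp5b (4.41 RPKM), and the other neighbours overlapped. Both receptors stayed at the lower end, with SBS means of 0.537 RPKM for igf1ra and 0.363 RPKM for igf1rb. By mean RPKM igfbp1a moved from percentile 50.2 of all genes in sham to percentile 97.4 in SBS.

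The shares of the 3 ligands, and of igfbp1a, igfbp3 and igfbp5b among the binding proteins, did not overlap between the groups. Of all genes taken singly, 46.9% did not overlap. Igf2b made up 91.0%, 91.1% and 92.5% of the summed ligand RPKM in the sham libraries, but 61.7% in SBS 1 and 46.0% in SBS 3. The share of igf2a was 5.72% to 8.89% in sham and 28.3% and 49.4% in SBS. As a ratio within each library, igf2b over igf2a was 10.4, 10.2 and 16.2 in sham and 2.18 and 0.932 in SBS, so igf2a exceeded igf2b in SBS 3 only. The summed ligand RPKM itself overlapped, at 17.5, 22.0 and 47.9 in sham and 18.4 and 15.8 in SBS. For these ratios the exact permutation test (two-sided) gave p = 0.2 where the groups did not overlap, the smallest value that 3 against 2 libraries allow.

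Igfbp1a made up 17.4% to 35.6% of the summed RPKM of the 5 binding proteins in sham and 93.8% and 79.0% in SBS 1 and SBS 3. The igfbp5b share was 32.8% to 37.6% in sham and 0.909% and 6.97% in SBS, and the igfbp3 share 19.0% to 24.8% in sham and 3.66% and 6.33% in SBS. The igfbp1b share overlapped, at 0.796% to 12.4% in sham and 1.14% and 0.482% in SBS. So did the igfbp2a share, at 1.80% to 23.8% in sham and 0.493% and 7.20% in SBS. A rise in igfbp1a alone lowers the other shares, and igfbp3 itself overlapped in CPM. Binding protein over ligand RPKM was 1.27, 0.739 and 0.540 in sham and 24.5 and 4.30 in SBS. Without igfbp1a the ratio overlapped between the groups, at 0.446 to 0.914 in sham and 1.52 and 0.902 in SBS, so the separation came from igfbp1a.

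**Figure D3:**
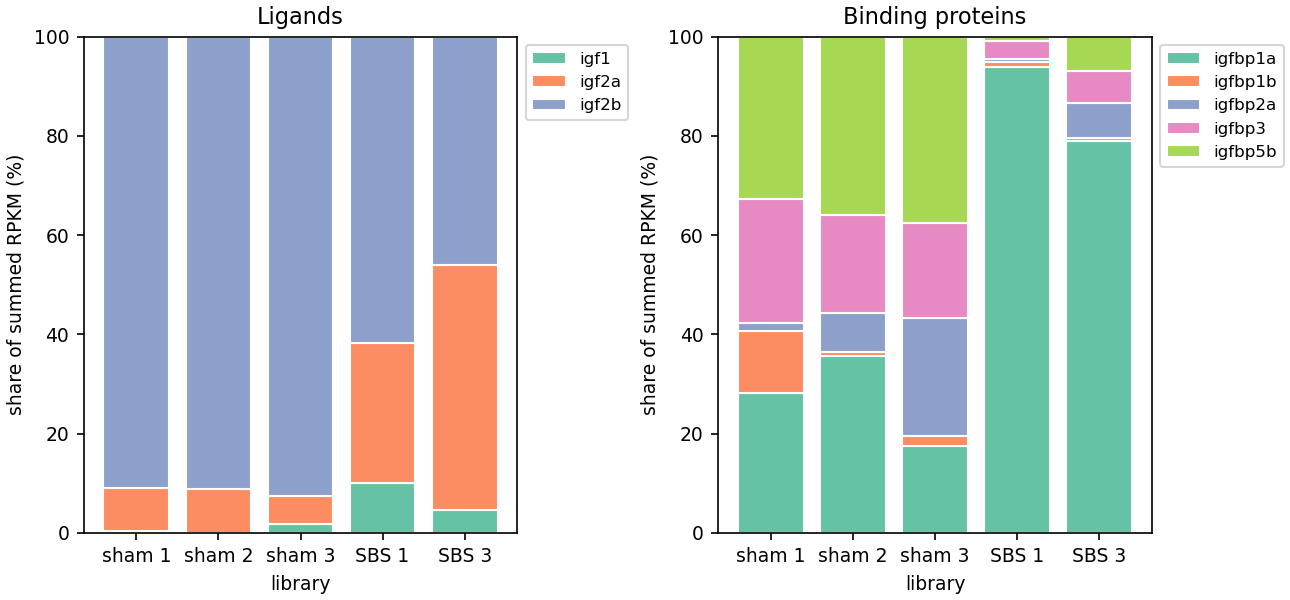
Share of each gene in the summed RPKM of the 3 ligands (left) and of the 5 binding proteins (right), in percent, for the 3 sham and 2 distinct SBS libraries. Igf2b fills over 90% of the ligand bar in each sham library and 61.7% and 46.0% in SBS 1 and SBS 3, and igfbp1a fills 93.8% and 79.0% of the binding protein bar in SBS.

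Of 5 ratios within pairs of duplicated genes beside igf2b over igf2a, 3 did not overlap between the groups. Among all genes taken singly, 46.9% did not overlap. Igfbp1a over igfbp1b was 2.27, 44.7 and 8.51 in sham and 82.5 and 164 in SBS, with both SBS libraries above all sham libraries. This ratio rested on 124, 6 and 23 igfbp1b counts in sham and 204 and 22 in SBS. Igf1ra over igf1rb was 5.32, 3.42 and 2.24 in sham and 1.37 and 1.85 in SBS, although on 15 to 74 igf1rb counts per library. Igfbp5b over its duplicate igfbp5a was 4.03, 4.03 and 3.81 in sham and 12.7 and 7.88 in SBS. Both genes were lower in both SBS libraries than in any sham library, and neither was called. Igfbp5a read 3.70, 2.95 and 5.19 CPM in sham and 0.653 and 1.22 CPM in SBS (log2 fold change -2.06, edgeR adjusted p = 0.0777). The exact permutation p (two-sided) was 0.2 for each of these 3 ratios. The ratios of igfbp2a over igfbp2b (0.364 to 7.78 in sham, 0.956 and 3.82 in SBS) and of insra over insrb (1.14 to 1.38 in sham, 1.35 and 1.79 in SBS) overlapped, with exact permutation p-values of 1.0 and 0.4.

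The rest of the pathway was taken from 8 lists with 154 names, of which 108 genes were tested. Of the 108, 3 were called higher and 2 lower in SBS, or 4.63%, near the 4.55% of all genes. The median log2 fold change was -0.12, with 50 positive and 58 negative, and 46.3% did not overlap between the groups. The genes called were irs2a and sesn1 (lower) and sesn2, htra1b and socs3b (higher).

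Irs2a (ENSDARG00000037099, chromosome 1), an insulin receptor substrate that links the insulin and IGF1 receptors to PI3 kinase, read 104, 121 and 113 CPM in sham and 12.5 and 13.8 CPM in SBS. The values were tight in both groups and far apart between them. Its log2 fold change was -3.10 (SE 0.271, edgeR adjusted p = 0.0157), and without SBS 1 it was -3.03. In the list of receptor adaptors and PI3 kinase to Akt it was the 1 gene called of 25, with 10 positive, 15 negative and a median of -0.18. The most abundant others of that list were akt2l, a gene named for the kinase Akt2 (-1.80, edgeR adjusted p = 0.106), pik3r1, a regulatory subunit of PI3 kinase (-1.5, 0.149), and the adaptor grb2b (-0.28, 0.483), none called.

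Of the 3 sestrins, stress-induced proteins that restrain mTORC1, sesn1 was called lower and sesn2 higher, and sesn3 was not called (-1.89, edgeR adjusted p = 0.0693). Sesn1 read 274, 194 and 410 CPM in sham and 63.4 and 43.0 CPM in SBS, a log2 fold change of -2.46 (SE 0.458, edgeR adjusted p = 0.0451). Sesn2 read 3.84, 4.13 and 2.25 CPM in sham and 27.6 and 13.0 CPM in SBS, a log2 fold change of 2.57 (SE 0.452, adjusted p = 0.0393). Without SBS 1 the log2 fold changes were -2.77 for sesn1 and 1.93 for sesn2. These were the 2 genes called of 29 in the mTORC1 and FoxO list, whose median was -0.37 with 10 positive and 19 negative. The ribosomal protein gene rps6, by far its most abundant member, had a log2 fold change of -1.39 (adjusted p = 0.109).

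Htra1b encodes a secreted serine protease whose mammalian counterpart cuts IGF binding proteins. It read 9.23, 8.04 and 12.7 CPM in sham and 80.6 and 39.3 CPM in SBS. The log2 fold change was 2.58 (SE 0.396, edgeR adjusted p = 0.0296), and 1.98 without SBS 1. All 5 measured genes of the protease and inhibitor list had a positive log2 fold change, median 2.15, and htra1b was the 1 called. Only htra1b and htra3a did not overlap between the groups: pappaa and stc1 had 16 and 12 counts in SBS 1 but 1 count each in SBS 3 and 1 to 5 in sham, and htra1a had -0.74 without SBS 3. Htra3a, a related protease, had 2.15 (adjusted p = 0.0830). None of the pathway calls held without any 1 sham library, where the edgeR adjusted p-values of the 5 genes ran from 0.0758 to 0.168. In those fits 0 of all genes were called, so the lost calls do not set these 5 genes apart.

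In the growth hormone receptor arm, socs3b, a cytokine-induced inhibitor of JAK and STAT signalling, was the 1 gene called of 13. It read 16.3, 20.6 and 35.6 CPM in sham and 241 and 95.8 CPM in SBS. The log2 fold change was 2.80 (SE 0.528, edgeR adjusted p = 0.0456), and 1.99 without SBS 1. The list had 6 positive and 7 negative values and a median of -0.35. A further 3 genes of this arm, chosen after their values were seen, had lower levels in both SBS libraries than in any sham library without being called: the growth hormone receptors ghra (-1.19, adjusted p = 0.151) and ghrb (-1.60, 0.265), and socs2, an inhibitor of the growth hormone receptor (-2.23, 0.0766).

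The insulin receptors were lower in both SBS libraries without passing the threshold. Insra read 62.4, 39.0 and 35.9 CPM in sham and 17.8 and 23.0 CPM in SBS (log2 fold change -1.17, edgeR adjusted p = 0.103). Insrb read 32.9, 22.3 and 17.0 CPM in sham and 8.63 and 8.42 CPM in SBS (-1.5, adjusted p = 0.0726). Insulin receptor over IGF1 receptor RPKM was 28.0, 19.3 and 18.2 in sham and 3.70 and 12.7 in SBS, so insulin receptor transcripts outnumbered those of the IGF1 receptor in every library.

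Of the 12 other binding proteins and related secreted proteins, 0 were called by edgeR's quasi-likelihood test and 3 had an unadjusted p under 0.05, with 8 positive and 4 negative and a median of 1.08. Igfbp7, a related protein with low IGF affinity, read 14.7, 19.1 and 17.9 CPM in sham and 49.1 and 32.3 CPM in SBS (log2 fold change 1.24, edgeR adjusted p = 0.0693). Igfbp6b read 5.13, 4.30 and 11.7 CPM in sham but 85.4 and 3.12 CPM in SBS, so SBS 1 was the highest library and SBS 3 the lowest (2.65, adjusted p = 0.207). In the same test 0 of the 18 genes of the Ras to ERK branch were called and 4 had an unadjusted p under 0.05 (median -0.10). Of the 2 measured IGF2 mRNA binding proteins 0 were called and 1 had an unadjusted p under 0.05 (0.39 for igf2bp2a and 1.5 for igf2bp3).

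**Figure D4:**
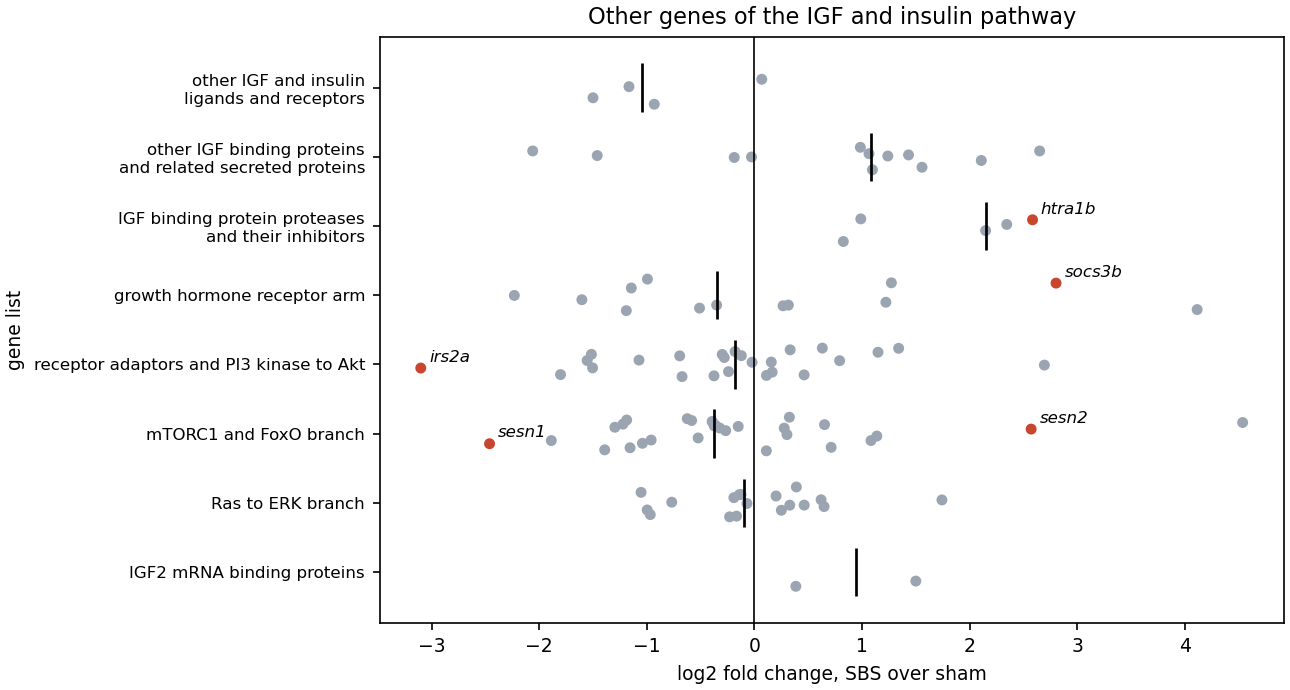
Log2 fold change, SBS over sham, of the 108 tested genes in the 8 lists of other IGF and insulin pathway genes, 1 point per gene with a random vertical offset; black bars are list medians, and the 5 called genes are red and named. The points lie on both sides of 0 in most lists, with medians of 2.15 for the proteases and inhibitors and -1.05 for the other ligands and receptors.

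Markers of some other cell types moved with the groups. Of 37 measured hepatocyte genes held by no other list, 29 were called higher in SBS and 34 were above all sham libraries in both SBS libraries. Their summed level was 210 to 378 CPM in sham and 22878 and 5396 CPM in SBS 1 and SBS 3, none of them was at 0 in all sham libraries, and 17 reached 1 CPM in sham. The transferrin gene tfa, a defining liver product, read 24.3 to 32.4 CPM in sham and 8043 and 882 CPM in SBS. Tfa was 9.12 times higher in SBS 1 than in SBS 3, beside 7.87 times for igfbp1a. The hepatocyte genes fga and serpina1 were 5.14 and 4.66 times higher in SBS 1. Fabp10a, the liver fatty acid binding protein, read 0.583 to 4.13 CPM in sham and a near equal 98.4 and 89.6 CPM in SBS. The part of hepatocyte transcripts in the igfbp1a, igf1 and igfbp3 values was not tested.

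Of 17 fibroblast and matrix genes, 7 were called higher and 14 were above all sham libraries, with sums of 456 to 723 CPM in sham and 2738 and 4255 CPM in SBS. This sum was higher in SBS 3 than in SBS 1, as was igf2a. Htra1b went the other way, at 80.6 CPM in SBS 1 and 39.3 CPM in SBS 3. The part of these cells in the igf2a and htra1b values was not tested. Of 15 absorptive enterocyte genes 12 were below all sham libraries and 1 above; 1 was called lower and 1 higher (apoa4a and apoa1b, apolipoprotein genes named after their values were seen). The 15 genes had sums of 83053 to 136603 CPM in sham and 14498 and 44777 CPM in SBS. Their part in the igf2b, irs2a and insulin receptor values was not tested. Exocrine pancreas genes, 16 measured, had 0 called and 0 at an unadjusted p under 0.05 by edgeR. Their sums were 2469 to 66263 CPM in sham and 3774 and 12020 CPM in SBS, highest in sham 3. Among the sham libraries, sham 3 also had the most igf1, igf2a, igf2b, igf1rb, igfbp2a and igfbp5b. Igf1ra and igfbp1a were lowest in sham 3, and igfbp1b and igfbp3 were highest in sham 1. The fibroblast, macrophage and smooth muscle sums were also highest in sham 3 among the sham libraries. The part of pancreas transcripts in the values of the IGF axis genes was not tested.

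**Figure D5:**
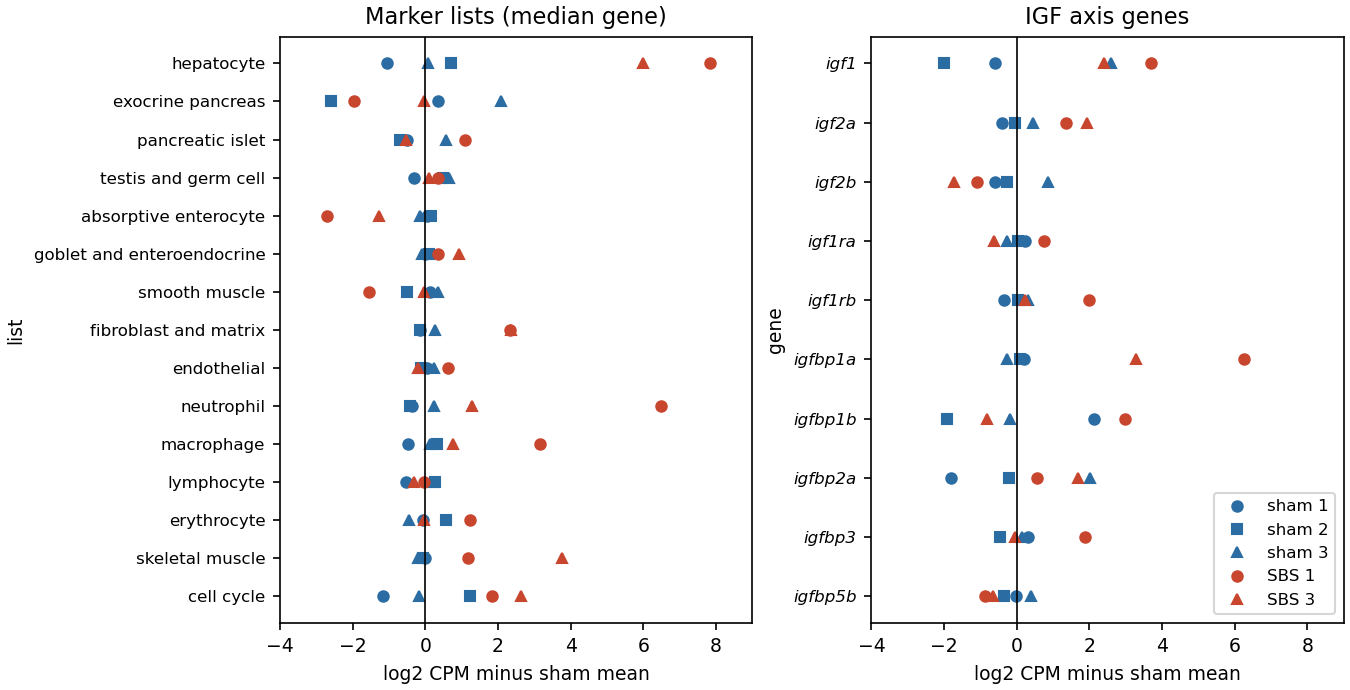
Per-library log2 CPM minus the sham mean (with a prior count of 2), for the median gene of each of 15 marker lists without genes shared between lists (left) and for the 10 IGF axis genes (right); blue marks are sham libraries and red marks SBS libraries. The hepatocyte median lies at 7.83 in SBS 1 and 5.98 in SBS 3 and the fibroblast median at 2.34 and 2.35, beside 6.26 and 3.28 for igfbp1a and 1.35 and 1.94 for igf2a.

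Many genes of the neutrophil, macrophage and cell cycle lists were also higher in SBS, unequally in SBS 1 and SBS 3. The 6 neutrophil genes summed to 136 to 266 CPM in sham and 4549 and 11331 CPM in SBS, with 1 called higher, the neutrophil peroxidase gene mpx. Mpx alone made up 11098 CPM in SBS 3, where the other 5 genes summed to 232 CPM, within their sham range of 128 to 262 CPM, against 4263 CPM in SBS 1. Of 11 macrophage genes 8 lay above all sham libraries, 8 had an unadjusted p under 0.05 and 1 was called higher, with a median log2 fold change of 2.41. Their sums, of which cd74a was the largest part on average, overlapped at 2050 to 5351 CPM in sham and 5934 and 3780 CPM in SBS. Of 25 cell cycle genes 5 were called higher and 15 lay above all sham libraries, with sums of 130 to 504 CPM in sham and 540 and 1022 CPM in SBS. Smooth muscle (10 genes), endothelium (12) and lymphocytes (11) had 0 calls each by edgeR, with 2, 1 and 0 genes at an unadjusted p under 0.05.

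The genes nearest to igfbp1a across the 5 libraries, by Euclidean distance in log2 CPM minus the sham mean, were defbl1 (0.472), miox (0.667) and tmigd1 (0.724). All 3 were expressed far below igfbp1a. Defbl1 and tmigd1 had 0 counts in every sham library and 3.33 and 2.61 CPM in SBS 1. Their sham level in log2 CPM was thus set by the prior count of 2, and so in part were their distances. The edgeR log2 fold changes were 9.12 for defbl1, 8.84 for tmigd1 and 6.08 for miox, beside 5.43 for igfbp1a. Miox, which encodes an inositol oxygenase, read 0.0300 to 0.0874 CPM in sham and 8.95 and 0.698 CPM in SBS. None of the 3 was called.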

How the data were processed

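RNA from proximal intestine was sequenced with a stranded kit and spike-in controls. The authors trimmed reads (Trimmomatic), aligned them (STAR) and counted them with HTSeq-count; the strand setting is not given in the sources used here, so antisense overlap cannot be told apart, and the build is named differently in the methods (danRer7) and the submitters' processing notes (GRCz10/danRer10), so only chromosomes are given. The deposited table held raw counts, which were used here, and the authors' RPKM values, not used here. The deposited log2 fold changes and mean levels, likelihood ratio scores and p-values of the authors' own comparison entered no test; the deposited gene length gave the RPKM used here.

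Of 12488 rows, 70 spike-in and 20 repeated rows were left out. Genes with 10 counts or more over 5 libraries were fitted by group with edgeR 4.0.16 (R 4.3.3; TMM, quasi-likelihood). SE is the log2 fold change over the root of F. The common biological coefficient of variation was 46.8%. Counts of 20377652 to 47142289 per library set the precision (those of SBS 1, all even, may be doubled), and limits from 3 counts cover counting error only.

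Members and lists were chosen with earlier results of these data known. Named were all members, called genes and the 3 genes with the highest mean RPKM of each pathway list (values are given for those a result turned on), and the 3 nearest genes. Alternatives used DESeq2 1.42.0, limma 3.58.1 on log2(RPKM + 1) or log2(RPKM + 0.1), RUVg, other scalings, filters, fold limits and left-out libraries.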

Additional observations from a re-analysis of the deposited data

How the results depend on the processing

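Igfbp1a kept its direction under all 18 alternatives and lost its call under 4 of them. The count of IGF axis genes called, 1, was 2 under total counts only, DESeq2's Wald test, the likelihood ratio test and all 6 columns, 3 under RUVg, and 0 to 2 with 1 library left out. The count over all genes, 563, was 2293 under total counts only (2095 higher and 198 lower, against 308 and 255), 1888 under the Wald test (1177 and 711), 1931 under the likelihood ratio test (1215 and 716), 1689 under RUVg (961 and 728), 1936 with all 6 columns (1183 and 753) and 0 to 2330 with 1 library left out; 6 columns enter SBS 1 as a pair of copies. Without SBS 1, igf1ra (-0.66), igfbp1b (-1.80) and igfbp3 (-0.086) changed sign; igfbp2a did without sham 1 (-0.063) or SBS 3 (-0.23), igf1ra (-0.29) and igfbp1b (-0.93) did under RUVg, and igfbp5b (0.057) under total counts only. The cause was not tested. The left-out ranges of log2 fold change were 1.28 to 5.40 for igf1, 1.32 to 1.92 for igf2a, -1.88 to -0.93 for igf2b, -0.66 to 0.74 for igf1ra, 0.22 to 2.05 for igf1rb, 3.28 to 6.25 for igfbp1a, -1.80 to 3.03 for igfbp1b, -0.23 to 2.09 for igfbp2a, -0.086 to 1.85 for igfbp3 and -0.91 to -0.55 for igfbp5b. A left-out SBS library leaves 1, assumed to vary like the sham libraries.

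With the replicate block, 0 genes and 0 IGF axis genes were called, with 1923 genes at an unadjusted p under 0.05, and igfbp1a had a log2 fold change of 4.82 (edgeR adjusted p = 0.177). Deviations from the group means in same-numbered libraries had r of -0.094 and -0.106 across 12381 genes, which are not independent. With 2 SBS libraries, their deviations from the SBS mean mirror each other, so these values cannot decide whether same-numbered libraries were paired.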
